A study of Mus musculus with 12 samples.

Results

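The platelet-derived growth factor (PDGF) genes of the mouse were examined in cultures from the subventricular zone, a germinal region beside the lateral ventricles of the brain. The set was fixed by symbol as the 2 receptors Pdgfra and Pdgfrb and the 4 ligands Pdgfa, Pdgfb, Pdgfc and Pdgfd, which are 6 of the 55401 gene identifiers in the count table. All 6 had counts, and 4 of them (Pdgfra, Pdgfrb, Pdgfa and Pdgfc) passed the filter on low counts that preceded the tests. Pdgfb and Pdgfd did not pass and are given as counts.

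Each of 3 groups held 4 libraries of primary cells from CD1 mice, for which the labels name no transgene or mutant allele. Postnatal neural stem cells (NSC) were taken from pups of postnatal day 0 to 2 and adult NSC from animals of 2 months. Both were grown for 6 to 7 days as neurospheres, floating clusters that mix stem cells with their progeny, with FGF at 10 ng/mL, EGF at 20 ng/mL and heparin at 2 ug/mL. Postnatal oligodendrocyte precursor cells (OPC) were obtained from dissociated primary neurospheres of pups of the same age, plated as a monolayer for 2 days with PDGF-AA at 10 ng/mL in place of EGF and heparin, and with FGF again at 10 ng/mL. The medium of all groups was serum-free with 2% B27. OPC therefore differed from postnatal NSC in the growth factors, the form of the culture and its length, and these cannot be told apart. PDGF-AA, the A-chain ligand itself, was thus added to the OPC cultures and is not listed for the neurospheres.

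PDGF ligands are secreted dimers that bring together receptor tyrosine kinases of the cell surface. The alpha receptor binds the A, B and C chains, and the beta receptor binds mainly the B and D chains. In the brain the alpha receptor marks oligodendrocyte precursors, for which PDGF-AA is a mitogen and survival factor, while the beta receptor is best known from pericytes and vascular smooth muscle cells, which are recruited by PDGF-B from endothelium.

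Libraries of adult NSC held 16756231 to 20064043 gene counts, those of OPC 17226501 to 23651396, and those of postnatal NSC 38928989 to 54801726, so depth followed the groups. Levels below are CPM, the counts per 1e6 of the TMM-normalised library size. Of the 10 OPC markers other than Pdgfra, 5 were called higher and 0 lower in OPC than in postnatal NSC, by edgeR's test described below. Of all genes tested, 22.4% were called higher and 22.7% lower in that comparison. Their summed level was 9334 to 12920 CPM in OPC against 5121 to 5421 CPM in adult NSC and 5941 to 6329 CPM in the postnatal neurospheres. Ptprz1 led the sum in each group, at 2868 to 3009 CPM in adult and 2527 to 2947 CPM in postnatal neurospheres. Gene by gene the neurospheres differed more than the sum. In adult against postnatal NSC, 7 of the 10 markers were called lower and 0 higher (median log2 fold change -1.4), where 27.9% and 25.2% of all genes were. Of the 8 neural stem markers, 2 were called higher and 5 lower in OPC than in postnatal NSC (22.4% and 22.7% of all genes). Against adult NSC, 4 were called higher and 3 lower in OPC (26.3% and 24.7% of all genes). The 8 markers summed to 4692 to 7573 CPM in OPC, with 7525 to 8216 CPM in the postnatal and 8820 to 9562 CPM in the adult neurospheres. Fabp7, the highest of them, was at 3116 to 4997 CPM in OPC against 1911 to 2448 CPM in the postnatal neurospheres. A pair of libraries stood apart in genes of the G1/S transition of the cell cycle. The 14 genes summed to 690 CPM in postnatal NSC 3 against 1395 to 1881 CPM in the other postnatal NSC libraries, and to 532 CPM in OPC 2 against 1981 to 2305 CPM in the other OPC libraries. The adult libraries lay between 2028 and 2288 CPM. Members whose values rest on those libraries are given with and without them.

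The promoters of a receptor and a ligand are shown, that of Pdgfra because its transcript separated the groups and that of Pdgfc because it was the ligand called in a test. Each is the 250 bases before the start of the gene in the RefSeq promoter table (GRCm38.p6), in which 4 of the 6 genes were found. The Pdgfra window is chr5:75152001-75152250 on the plus strand and has 54.4% G and C bases. The Pdgfc window is chr3:81036166-81036415 on the plus strand and has 50.8%.
Pdgfra promoter: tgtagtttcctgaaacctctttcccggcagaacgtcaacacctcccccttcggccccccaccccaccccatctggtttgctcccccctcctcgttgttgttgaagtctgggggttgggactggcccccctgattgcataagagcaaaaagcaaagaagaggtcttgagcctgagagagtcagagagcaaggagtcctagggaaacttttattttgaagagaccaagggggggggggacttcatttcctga
Pdgfc promoter: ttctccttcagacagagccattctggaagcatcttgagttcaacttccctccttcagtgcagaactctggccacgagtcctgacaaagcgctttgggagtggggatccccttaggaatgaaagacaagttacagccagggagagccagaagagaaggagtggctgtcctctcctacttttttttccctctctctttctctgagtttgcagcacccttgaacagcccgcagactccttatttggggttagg
Capitals would mark a match to a searched motif, and neither window holds one. The motifs, searched on both strands, were the GC box GGGCGG (in 32.7% of 32851 promoter windows of the same length), the EGR motifs GCGGGGGCG (2.57%) and GCGTGGGCG (0.536%), the AP-1 motif TGACTCA (4.46%), the TATA box TATAAA (12.4%) and the SOX core AACAAT (9.42%). The median promoter had 52.4% G and C bases. The first Pdgfa window (66.4% G and C bases) holds 1 GC box, 60 bases before the start, and the second (72.4%) holds 2. The Pdgfd window holds 1 TATAAA.

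Pdgfra (ENSMUSG00000029231.15), the alpha receptor gene, lies on chromosome 5 from 75152292 to 75198215 of GRCm38, on the plus strand. In postnatal NSC 1 to 4 its level was 210, 284, 271 and 155 CPM. In the adult NSC libraries it was 12.1, 15.1, 13.6 and 8.14 CPM, and in the OPC libraries 1032, 2496, 1150 and 1055 CPM. The 3 groups did not overlap, since every OPC library was above every postnatal NSC library, and every postnatal NSC library was above every adult one. Within OPC, library 2 stood above the other 3, which lay close together. In bulk samples fewer cells of a type and less RNA per cell cannot be told apart. Other OPC markers moved with Pdgfra in part. Of 10, 7 were called lower in adult than in postnatal NSC (27.9% of all genes) and 5 higher in OPC than in postnatal NSC (22.4%). Olig2 and Ptprz1 had higher means in adult than in postnatal NSC (622 against 528 CPM and 2921 against 2775 CPM). Nkx2-2 was at 20.5 CPM in OPC against 22.7 CPM in postnatal NSC. The marker sum was highest in OPC 2 (12920 CPM against 9334 to 9647 CPM in the other OPC libraries). Sox10, a transcription factor of the oligodendrocyte lineage named after its values were seen, was at 10.9 to 14.4 CPM in adult NSC, 58.4 to 204 CPM in the postnatal neurospheres and 91.1 to 382 CPM in OPC. Their part in the Pdgfra differences was not tested.

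Pdgfra was 6.23-fold higher in OPC than in postnatal NSC (log2 fold change 2.64 ± 0.315 SE, adjusted p = 4.98e-05 by edgeR's quasi-likelihood test with Benjamini-Hochberg adjustment). It was 18.8-fold lower in adult than in postnatal NSC, with a log2 fold change of -4.23 ± 0.343 (adjusted p = 4.01e-06, edgeR). Between OPC and adult NSC the difference was 117-fold, a log2 fold change of 6.87 ± 0.386 (adjusted p = 9.61e-08, edgeR). These comparisons share libraries and are not independent of each other. The call held in all 23 alternative settings of each comparison. Without OPC 2, the log2 fold change over postnatal NSC was 2.20, the lowest of them. Pdgfra overlaps the gene models Gm42802, Gm42803 and Mir7025, and the strand setting of the counting was not given in the sources used here.

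**Figure D1:**
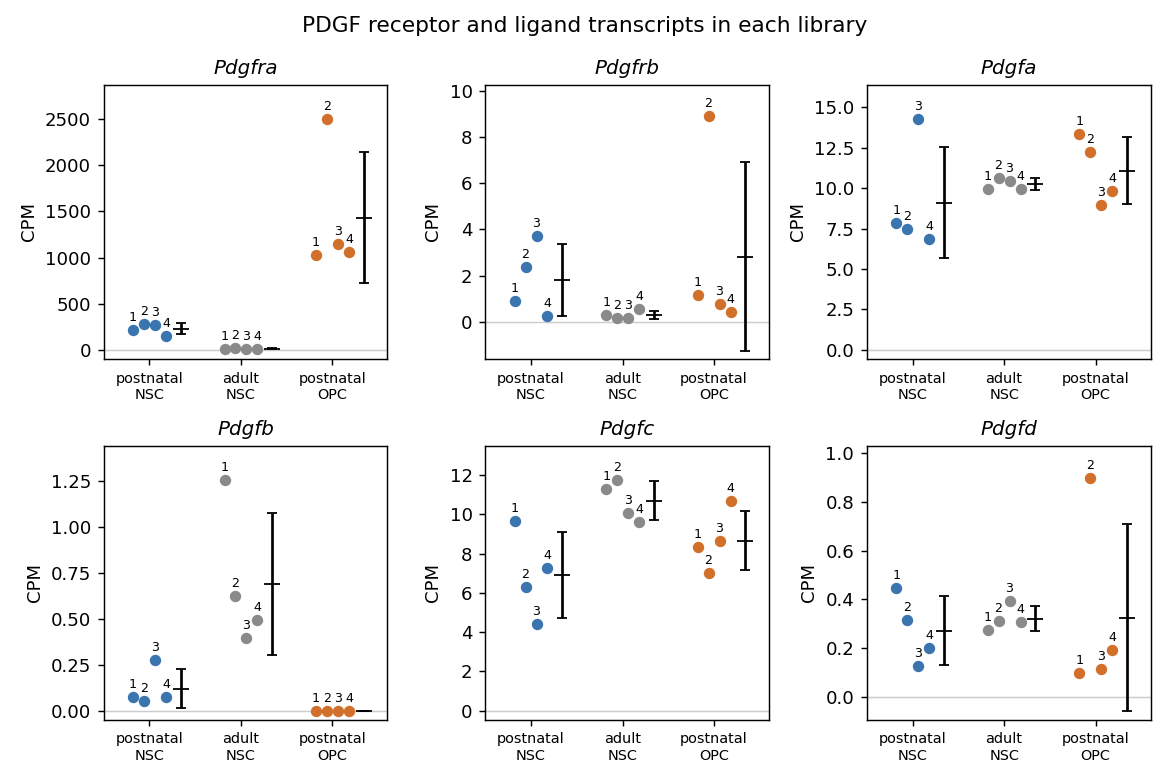
CPM of each PDGF gene in each library, with the replicate number beside each point and the mean ± SD (n = 4) drawn as a bar beside each group; each panel has its own linear scale, and a bar below 0 means that the SD exceeds the mean. Pdgfra separates the 3 groups, with OPC 2 at 2496 CPM, while Pdgfa and Pdgfc lie between 4.41 and 14.2 CPM in every library.

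Pdgfrb (ENSMUSG00000024620.11; chromosome 18, 61045150 to 61085061, plus strand), the beta receptor gene, was low in most libraries. Its level in postnatal NSC 1 to 4 was 0.894, 2.39, 3.73 and 0.249 CPM, from 36, 136, 149 and 10 counts. In adult NSC it was 0.273, 0.156, 0.169 and 0.555 CPM, from 5, 3, 3 and 9 counts. In OPC it was 1.16, 8.93, 0.749 and 0.432 CPM, from 24, 219, 13 and 9 counts. OPC 2 was the highest of all 12 libraries, and each pair of groups overlapped. The other OPC libraries had 9 to 24 counts.

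The only call for Pdgfrb was a higher level in OPC than in adult NSC (log2 fold change 3.32 ± 1.11, adjusted p = 0.025, edgeR). It was lost without OPC 2, where the log2 fold change was 1.46 (adjusted p = 0.192, edgeR), and when adult NSC 1, 2 or 3 was left out in turn (adjusted p 0.0584 to 0.0659, edgeR). OPC did not pass the test against postnatal NSC (0.65 ± 0.889, adjusted p = 0.575, edgeR), and without OPC 2 that difference turned to -1.24 (adjusted p = 0.191, edgeR). The difference of adult from postnatal NSC was -2.67 ± 1.1 with an adjusted p of 0.0585 in edgeR, just outside the threshold of 0.05, and 8 of the 23 alternatives called it.

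The G1/S genes of the cell cycle ran opposite to Pdgfrb in the postnatal groups. Within each postnatal group the order of the libraries by Pdgfrb was the reverse of their order by the G1/S sum. Postnatal NSC 3, 2, 1 and 4, listed from the highest Pdgfrb level to the lowest, had a G1/S sum of 690, 1395, 1853 and 1881 CPM. OPC 2, 1, 3 and 4, listed in the same way, had 532, 1981, 2141 and 2305 CPM. Adult NSC 4, 1, 3 and 2, listed in the same way from few Pdgfrb counts, had 2051, 2057, 2288 and 2028 CPM and did not follow that order. The mural cell markers are led by Acta2 and Tagln, with means of 46.7 and 30.8 CPM in postnatal NSC, where the mean sum was 79 CPM. Their 9 genes, of which 2 passed the filter, summed to 1.51 to 5.96 CPM in OPC, 20.9 to 52.6 CPM in adult and 50.4 to 102 CPM in postnatal neurospheres. Postnatal NSC 3, 2, 1 and 4, from the highest Pdgfrb level to the lowest, had a mural sum of 102, 75.9, 87.4 and 50.4 CPM, so the highest and the lowest library were the same for both. OPC 2, 1, 3 and 4 had 1.51, 4.84, 5.3 and 5.96 CPM, the reverse of their order by Pdgfrb. Adult NSC was below postnatal NSC in the mean of both. The mural markers Des (0.435 against 0.155 CPM) and Kcnj8 (0.0136 against 0 CPM) went the other way, with the higher mean in adult NSC. Kcnj8 had no counts in postnatal NSC, and Abcc9 and Vtn had none in adult NSC. In postnatal NSC 3, 2, 1 and 4 other marker sums fell with Pdgfrb. They were 901, 592, 416 and 328 CPM for mature oligodendrocytes and 94.1, 71.4, 47.7 and 32 CPM for neurons and neuroblasts. The astrocyte sum was 2136, 2057, 1662 and 1283 CPM. The sums of the remaining cell type lists did not. In OPC these sums did not follow the full order of Pdgfrb. OPC 2 was highest for the former pair (531 and 233 CPM) and lowest for astrocytes (869 CPM). The part of the G1/S, mural and other marker differences in the Pdgfrb values was not tested.

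**Figure D2:**
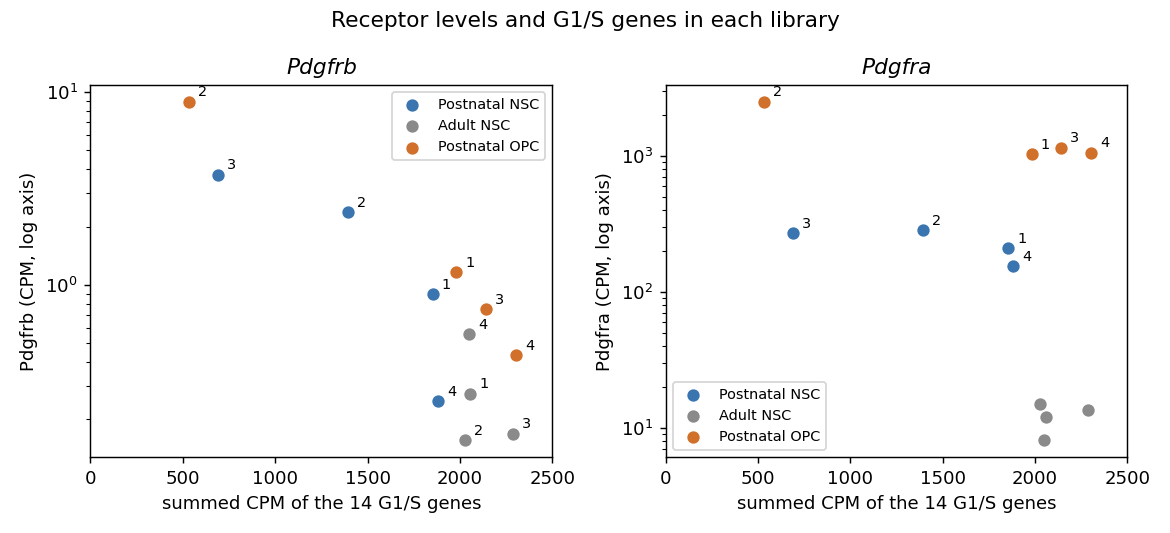
Level of the 2 receptors (log axis) against the summed level of 14 G1/S genes (linear axis, CPM) in the 12 libraries, coloured by group. Postnatal NSC 3 (690 CPM) and OPC 2 (532 CPM) lie far to the left, and OPC 2 is the highest library for both receptors, at 8.93 CPM for Pdgfrb and 2496 CPM for Pdgfra.

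Among the ligands, Pdgfa (ENSMUSG00000025856.15; chromosome 5, 138976014 to 138997370, minus strand), which encodes the A chain, lay between 6.88 and 14.2 CPM in all 12 libraries. It was 7.85, 7.46, 14.2 and 6.88 CPM in postnatal NSC, 9.93, 10.7, 10.47 and 9.93 CPM in the adult libraries, and 13.4, 12.2, 8.93 and 9.85 CPM in OPC. The groups overlapped, with postnatal NSC 3 highest of all. No comparison passed edgeR's test. The log2 fold change was 0.29 ± 0.22 for OPC over postnatal NSC (adjusted p = 0.309, edgeR), 0.17 ± 0.221 for adult over postnatal NSC (adjusted p = 0.532, edgeR) and 0.12 ± 0.223 for OPC over adult NSC (adjusted p = 0.69, edgeR). Without postnatal NSC 3, both differences from postnatal NSC passed, at 0.58 for OPC (adjusted p = 0.00679, edgeR) and 0.47 for adult NSC (adjusted p = 0.021, edgeR). Pdgfa shares 21.3% of its 50-base stretches with other genes, and it overlaps 6330403L08Rik, which was at 5.06 ± 0.896, 4.16 ± 0.453 and 8.69 ± 0.792 CPM (SD, n = 4) in postnatal NSC, adult NSC and OPC. Reads of the pair may not be separated.

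Pdgfc (ENSMUSG00000028019.9; chromosome 3, 81036416 to 81214040, plus strand) encodes the C chain, which must be cut by a protease to bind. It was 9.66, 6.30, 4.41 and 7.28 CPM in postnatal NSC, 11.3, 11.7, 10.1 and 9.62 CPM in the adult libraries, and 8.33, 7.01, 8.64 and 10.7 CPM in OPC. Adult libraries were the highest as a group, though postnatal NSC 1 at 9.66 CPM was slightly above adult NSC 4 at 9.62 CPM. Adult NSC was called higher than postnatal NSC, by a log2 fold change of 0.63 ± 0.214 (1.55-fold, adjusted p = 0.0265, edgeR). That call was lost when 1 of adult NSC 1 or 2 or of postnatal NSC 2, 3 or 4 was left out (adjusted p 0.0505 to 0.0869, edgeR). OPC differed from neither NSC group by edgeR's test (0.33 ± 0.214, adjusted p = 0.235; -0.30 ± 0.216, adjusted p = 0.259).

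Pdgfb (ENSMUSG00000000489.7; chromosome 15, 79995874 to 80014977, minus strand), which encodes the B chain and binds both receptors, had 3, 3, 11 and 3 counts in postnatal NSC and 23, 12, 7 and 8 in adult NSC. It had 0 counts in each of the 4 OPC libraries. The 2 NSC groups did not overlap, at 0.0526 to 0.276 CPM against 0.394 to 1.26 CPM. A total of 3 counts over the OPC group would be 0.036 CPM. Set at that floor, Pdgfb was 3.13-fold lower in OPC than in postnatal NSC and 19.4-fold lower than in adult NSC. The 95% exact intervals of the ratio of OPC to these groups reached up to 0.431 and 0.0657. The adult to postnatal ratio of pooled CPM was 6.2 (95% exact interval 3.62 to 11, which covers counting error only). Postnatal NSC 3 held 11 of the 20 postnatal counts. Without it, Pdgfb set at the same floor was 1.82-fold lower in OPC than in postnatal NSC, and the adult to postnatal ratio was 10.7 (5.2 to 24.7). Without adult NSC 1, which held 23 of the 50 adult counts, that ratio was 4.5 (2.43 to 8.46). edgeR without the filter and with all libraries gave adjusted p values of 0.0193, 0.000259 and 0.00796 for these 3 differences.

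The summed level of markers of endothelium, a known source of PDGF-B, was also lowest in OPC, mostly through Flt1. The 7 genes, of which 2 passed the filter, summed to 2.19 to 3.55 CPM in OPC, 14.9 to 16.3 CPM in adult and 4.63 to 16.1 CPM in postnatal neurospheres. In OPC Cdh5, Cldn5 and Emcn had no counts. Flt1 led the list in the neurospheres, at 11.7 to 12.7 CPM in adult NSC. Its mean was 12.1 CPM there, 7.24 CPM for the postnatal neurospheres and 0.296 CPM for OPC. Kdr differed less, with means of 2.45, 3.3 and 2.27 CPM in the same order. None of the remaining markers had a mean above 0.375 CPM (Tek, adult NSC), so the sum says little of endothelial content. Pecam1 went the other way, at a mean of 0.201 CPM in OPC against 0.16 CPM in postnatal and 0.0702 CPM in adult NSC. Postnatal NSC 3, which held most of the postnatal Pdgfb counts, had the lowest endothelial sum of its group (4.63 CPM). The order of the postnatal libraries by Pdgfb was thus not their order by the endothelial sum. The part of these markers in the Pdgfb result was not tested.

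Pdgfd (ENSMUSG00000032006.15; chromosome 9, 6168584 to 6378850, plus strand) encodes the D chain, a ligand of the beta receptor. It had 18, 18, 5 and 8 counts in postnatal NSC, 5, 6, 7 and 5 in adult NSC, and 2, 22, 2 and 4 in OPC. All groups overlapped, and OPC 2 held 22 of the 30 OPC counts. The ratios of pooled CPM were 1.3 (95% exact interval 0.799 to 2.09) for OPC over postnatal NSC, 1.16 (0.677 to 1.95) for adult over postnatal NSC and 1.12 (0.629 to 2.02) for OPC over adult NSC. With all libraries a difference was not detectable at this depth. Without OPC 2 the direction turned for OPC, to ratios of 0.492 (0.201 to 1.05) over postnatal NSC and 0.423 (0.164 to 0.98) over adult NSC, from 8 OPC counts in 3 libraries. These intervals cover counting error only.

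In the comparison of OPC with postnatal NSC, 1 of the 4 tested members was called higher and 0 lower, where 22.4% and 22.7% of the 16135 genes tested were called (45.1% in either direction). In adult against postnatal NSC 1 was called higher (Pdgfc) and 1 lower (Pdgfra), where 25.2% and 27.9% of all genes were (53.1% in either direction). In OPC against adult NSC 2 were called higher (both receptors) and 0 lower, where 26.3% and 24.7% were (51% in either direction). With 4 tested members, these counts are near the background. The groups of 1 of the 4 tested members, Pdgfra, did not overlap in each comparison, where 34.9%, 53.2% and 56.6% of all genes did not overlap in the same order.

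**Figure D3:**
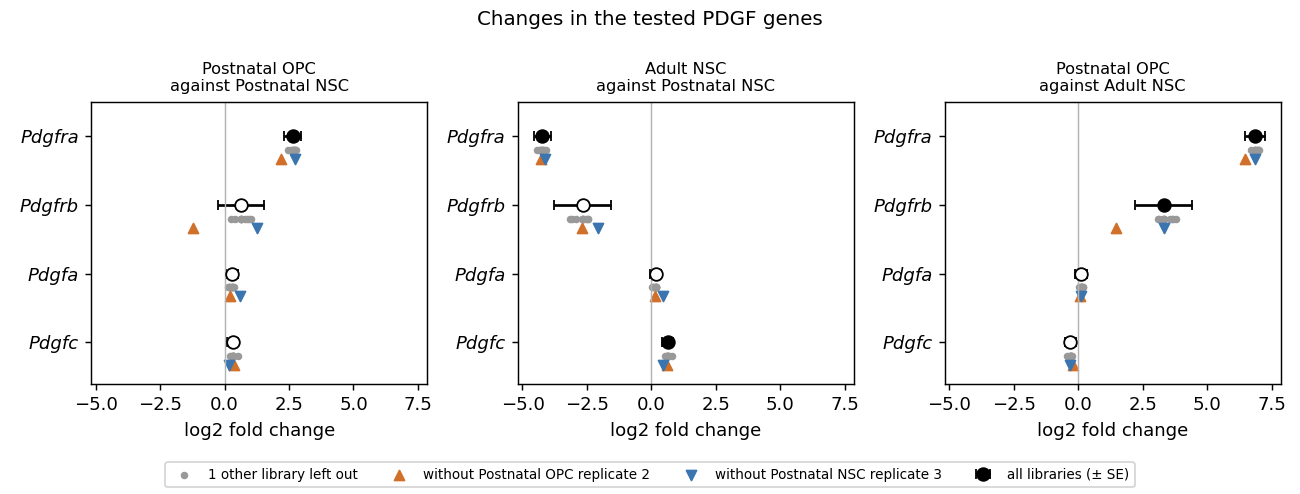
log2 fold change of the 4 tested genes in the 3 comparisons; circles with SE bars are fits to all libraries, filled where called at an adjusted p under 0.05, and the small points and triangles are fits with 1 library left out. Pdgfra lies far from 0 in all panels (2.64, -4.23 and 6.87), whereas Pdgfrb in OPC against postnatal NSC crosses 0 without OPC 2 (-1.24).

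Levels can be compared between genes only per length. Per kilobase of merged exons (RPKM, mean ± SD, n = 4), Pdgfra was at 22.9 ± 5.95 in postnatal NSC, above Pdgfa (2.92 ± 1.11), Pdgfc (1.36 ± 0.430) and Pdgfrb (0.331 ± 0.285). In OPC Pdgfra reached 143 ± 70.8, while Pdgfa and Pdgfc were at 3.56 ± 0.658 and 1.70 ± 0.297. In adult NSC the order changed, and Pdgfra at 1.221 ± 0.298 was below Pdgfa (3.29 ± 0.119) and Pdgfc (2.10 ± 0.196). All 4 adult libraries had Pdgfra (0.812 to 1.503) below Pdgfc (1.89 to 2.31). Pdgfb, Pdgfd and Pdgfrb were below 1 in the mean of every group.

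The summed level of the 4 ligands was 4.60 to 5.95 RPKM in OPC, 5.29 to 5.97 RPKM in adult and 3.72 to 5.54 RPKM in postnatal neurospheres. Pdgfa made up 59.4% to 72.0% of it in OPC, 55.0% to 60.4% in adult and 55.0% to 82.5% in postnatal neurospheres. Pdgfc made up most of the rest, 24.7% to 39.4%, 35.6% to 38.6% and 15.6% to 41.5% in the same order. Pdgfb reached 5.21% in adult NSC 1 and was 0 in OPC. The log2 ratio of Pdgfra to Pdgfrb RPKM was 7.26 to 10.4 in OPC, 3.00 to 5.72 in adult and 5.31 to 8.41 in postnatal neurospheres, so that the alpha receptor was the more abundant one in all 12 libraries.

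**Figure D4:**
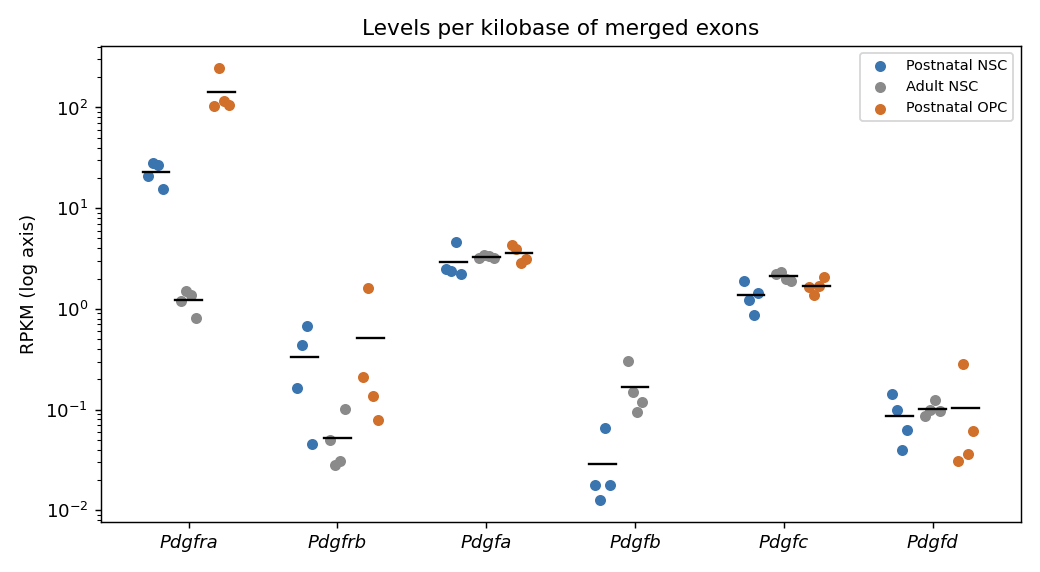
RPKM of the 6 PDGF genes by group on a log axis, with points for libraries and short lines for means (n = 4); Pdgfb in OPC is at 0 and has no point. Pdgfra is the highest member in both postnatal groups and falls below Pdgfa (3.29) and Pdgfc (2.10) in adult NSC, at 1.221.

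A set of 4689 tested protein-coding genes had a mean of at least 5 CPM and overlapped no other gene. Among these, the genes whose level followed each member over the 12 libraries were found. This describes libraries that share groups and depth, and says nothing of shared function. For Pdgfra the 5 nearest by Pearson correlation of log2 CPM were Dmrtb1 (r = 0.994), Agap2 (0.990), Oprl1 (0.990), Brinp2 (0.989) and Spon1 (0.988). For these 5 the correlation of the deviations from the group means was lower, from 0.458 (Brinp2) to 0.833 (Dmrtb1). Dmrtb1 was at 8.31 ± 1.76, 1.65 ± 0.341 and 24.2 ± 8.12 CPM (SD, n = 4) in postnatal NSC, adult NSC and OPC, the order of Pdgfra. Pdgfrb was nearest to Xpc (r = 0.957), Slc27a4 (0.951) and Zkscan5 (0.944), and for these 3 the correlation of the deviations from the group means was 0.935 to 0.964. Pdgfa was nearest to Ccdc186 (0.887), Ric8b (0.885) and Zfp386 (0.874), and Pdgfc to Immp1l (0.953), Pgrmc2 (0.943) and Abhd17c (0.937). The deviations correlated at 0.864 to 0.907 for Pdgfa and 0.921 to 0.957 for Pdgfc.

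Of 43 genes that act with the receptors, 42 passed the filter. In OPC against postnatal NSC 19 were called higher and 10 lower, where 22.4% and 22.7% of all genes tested were, with a median log2 fold change of 0.24 beside -0.0083 over all genes. In adult against postnatal NSC the counts were 14 and 11, where 25.2% and 27.9% of all genes were called (median 0.014 beside -0.025). In OPC against adult NSC they were 13 and 13, where 26.3% and 24.7% were called (median -0.022 beside 0.0065). The counts by role below are read against the same shares.

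Ligand processing genes include the proprotein convertases Furin, Pcsk5 and Pcsk6, and the protease Plat, which releases active PDGF-C. Of 6 tested, 1 was called higher and 4 lower in OPC than in postnatal NSC (22.4% and 22.7% of all genes). Pcsk6 was at 18.9 to 27.6 CPM in OPC, 2.78 to 3.55 CPM in adult and 5.65 to 12.4 CPM in postnatal neurospheres, without overlap, and was higher in OPC than in postnatal NSC (log2 fold change 1.54 ± 0.228, adjusted p = 0.000218, edgeR). Plat fell by 1.13 ± 0.172 on the log2 scale in OPC, to 222 ± 56.7 CPM from 484 ± 60.1 CPM (SD, n = 4; adjusted p = 0.000266, edgeR), and Furin fell by 0.62 ± 0.136 (adjusted p = 0.00302, edgeR). In adult against postnatal NSC 0 were higher and 3 lower, with Pcsk5 at -2.01 ± 0.404 (adjusted p = 0.0015, edgeR). In OPC against adult NSC 2 were higher, Pcsk6 and Pcsk5, and 4 lower.

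Receptor partners are surface proteins that bind PDGFs or their receptors. Of 6 tested, 1 was higher and 1 lower in OPC than in postnatal NSC (22.4% and 22.7% of all genes). Cspg4, the NG2 proteoglycan of OPC, was higher by 1.36 ± 0.17 (adjusted p = 6.98e-05, edgeR), and Nrp1, a neuropilin, was lower by a log2 fold change of -0.82 ± 0.147 (adjusted p = 0.000822, edgeR). Adult NSC had 2 higher and 3 lower than postnatal NSC, with Nrp2 at 2.07 to 6.18 CPM against 17.3 to 41.7 CPM (log2 fold change -2.76 ± 0.352, adjusted p = 8.95e-05, edgeR). In OPC against adult NSC 3 were higher and 3 lower. Cspg4 was also one of the 10 OPC markers and is not independent evidence of the label.

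Adaptors and kinases carry the signal inside the cell. Of 21, 13 were called higher and 4 lower in OPC than in postnatal NSC, where 22.4% and 22.7% of all genes were, so that the number lower is near the background. Pik3r1, a regulatory subunit of phosphoinositide 3-kinase, was at 542 to 572 CPM in OPC against 222 to 293 CPM in postnatal NSC, a log2 fold change of 1.13 ± 0.0922 (adjusted p = 4.33e-06, edgeR). Pik3r2, another regulatory subunit, went the other way, with a log2 fold change of -0.555 ± 0.102 (adjusted p = 0.000945, edgeR). Pik3cb, a catalytic subunit, was higher by 1.09 ± 0.109 (adjusted p = 1.52e-05, edgeR). Shc1, an adaptor, was at 9.95 to 12.7 CPM in OPC against 33.7 to 39.6 CPM in postnatal NSC, and fell by 1.63 ± 0.103 (adjusted p = 9.04e-07, edgeR). In adult against postnatal NSC 7 were higher and 4 lower, and in OPC against adult NSC 8 and 3.

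Negative regulators were called higher for 4 and lower for 1 of 9 tested in OPC against postnatal NSC (22.4% and 22.7% of all genes). Ptprj, a receptor phosphatase, rose by 0.83 ± 0.139 (adjusted p = 0.000524, edgeR). Socs3, a feedback inhibitor of cytokine signalling, was at 88.1 ± 78.9 CPM in the postnatal neurospheres against 10.9 ± 1.04 CPM in OPC (SD, n = 4), and fell by 3.02 ± 0.644 (adjusted p = 0.00245, edgeR). With the Y-linked gene Ddx3y as a covariate the log2 fold change was -1.44 and the call was lost (adjusted p = 0.0924, edgeR). In adult against postnatal NSC 5 were higher and 1 lower, with Rasa1, which ends Ras signalling, at 1.06 ± 0.0915 (adjusted p = 6.21e-06, edgeR). In OPC against adult NSC 0 were higher and 3 lower.

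The 8 immediate early genes, led by Egr1, were all called lower in OPC and in adult NSC than in postnatal NSC (22.7% and 27.9% of all genes). Their sum was 75.9 to 232 CPM in OPC, 508 to 576 CPM in adult and 4318 to 11601 CPM in postnatal neurospheres, and postnatal NSC 3, the highest library for Pdgfa, was the highest. Their part in the differences from postnatal NSC was not tested.

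The nearest relatives of the PDGF receptors are the other class III receptor tyrosine kinases. Kit, the receptor of stem cell factor and a neighbour of Pdgfra, was at 15.2, 24.1, 26.4 and 14.2 CPM in postnatal NSC, 4.20, 3.64, 4.16 and 3.70 CPM in the adult libraries, and 88.2, 162, 59.6 and 75.1 CPM in OPC. The groups did not overlap, and the order was that of Pdgfra. Kit was higher in OPC than in postnatal NSC by 2.27 ± 0.295 (adjusted p = 9.14e-05, edgeR) and lower in adult than in postnatal NSC by a log2 fold change of -2.35 ± 0.317 (adjusted p = 0.000127, edgeR). Kitl, its ligand, was at 148 ± 4.17 CPM in adult NSC, 41.6 ± 20.4 CPM in OPC and 39.8 ± 8.48 CPM in the postnatal neurospheres (SD, n = 4), and was higher in adult than in postnatal NSC (1.90, adjusted p = 0.000763, edgeR).

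Csf1, a ligand of Csf1r, was lower in OPC (21.0 CPM) than in postnatal NSC (34.3 CPM; log2 fold change -0.71, adjusted p = 0.00646, edgeR) and adult NSC (37.9 CPM; -0.85, adjusted p = 0.00183, edgeR). Il34, the other Csf1r ligand, had 33 counts in postnatal NSC, 76 in adult NSC and 0 in OPC. With OPC set at 3 counts over the group, Il34 was 5.17-fold lower there than in postnatal NSC and 29.5-fold lower than in adult NSC. The exact intervals of the ratio of OPC to these groups, taken as for Pdgfb, reached up to 0.252 and 0.0427. They cover counting error only. Flt3 and Csf1r had 11 counts or fewer in every group, and Flt3l was not called in any comparison.

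**Figure D5:**
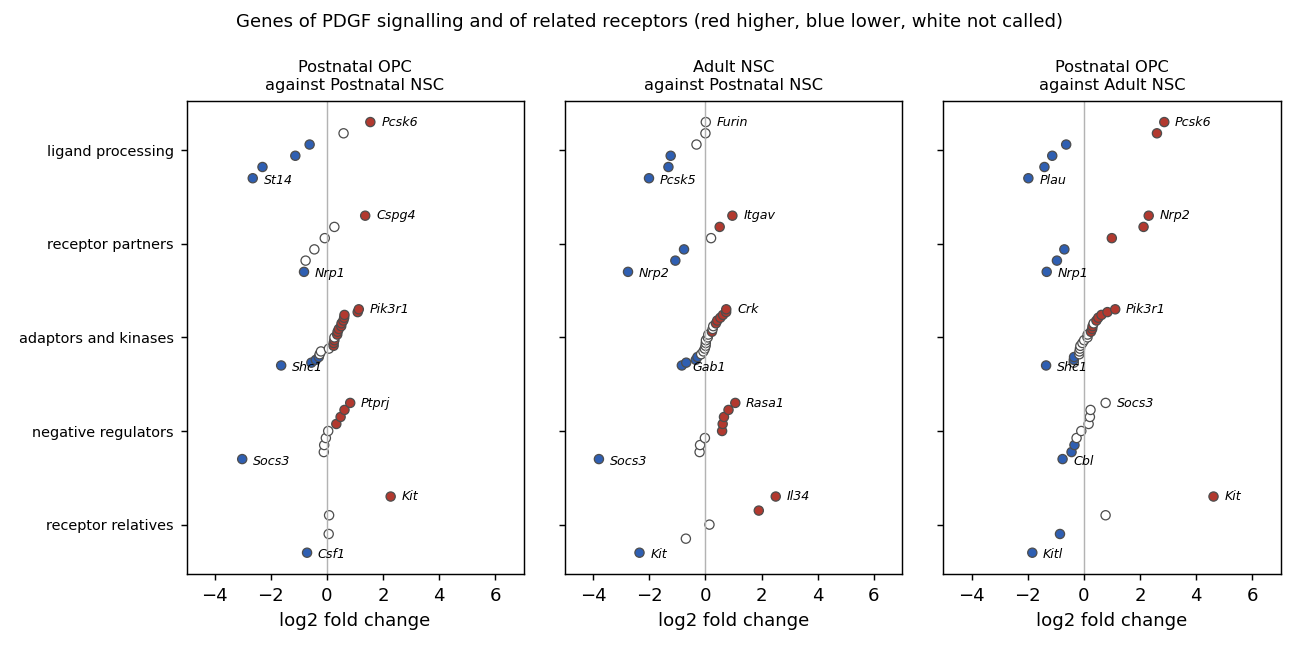
log2 fold change of the tested genes of each signalling list and of the receptor relatives in the 3 comparisons; red points were called higher and blue points lower at an adjusted p under 0.05, names mark the extremes, and genes with 0 counts in a compared group are not drawn. Shc1 (-1.63) and Pik3r1 (1.13) are the adaptor extremes in OPC against postnatal NSC.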

How the data were processed

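Per the labels, a stranded mRNA kit was used for 12 cultures. The deposited table holds raw counts per gene. The submitters' processing notes name STAR, FastQC, featureCounts 1.22.2 and the GRCm38 build. Annotation and strand setting are not given in the sources used here, so overlapping genes are uncertain. The labels describe 4 litters per group, so p-values measure the spread of these cultures.

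Tests were run with edgeR 4.0.16 under R 4.3.3 (filterByExpr, minimum count 10 and minimum total 15; 16135 genes; TMM; 1 quasi-likelihood fit over all libraries, biological coefficient of variation 22.6%; two-sided tests, Benjamini-Hochberg adjustment over all genes tested, called under 0.05). The standard error was taken from the log2 fold change and F. DESeq2 1.42.0 and limma 3.58.1 served as alternatives, with Python 3.11.15 for tables. The fit was tested on simulated counts. CPM and RPKM were computed here, RPKM from merged exon lengths in GENCODE M21 (GRCm38). Library pairs of a group differed beyond sampling noise, so none was treated as a duplicate. A fold against a group with 0 counts uses 3 counts over the group, and 95% intervals are exact (Clopper-Pearson), covering counting error only.

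The 6 members and the gene lists were chosen with earlier results of these data known. Named genes were the members, the receptor relatives, up to 3 called genes in each direction of each signalling list with at least 5 CPM, and the highest marker of a list. Alternatives were other scalings, filters, tools, thinning to equal depth, the replicate number as a block, Ddx3y as a covariate, and leaving out libraries.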

Additional observations from a re-analysis of the deposited data

Results flagged for a closer look

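The gap of the highest or of the lowest library to the next, whichever was larger, was taken as a share of the range. In 5 of 17 groups of 4 libraries examined, this share exceeded Dixon's 95% critical value for 4 samples, each time at the highest library. That value is set to be passed by about 1 in 20 independent, normally distributed groups. The groups here are genes read in the same libraries, so 5 of 17 cannot be set against that rate. OPC 2 passed the critical value for Pdgfra (2496 CPM), Pdgfrb (8.93 CPM) and Pdgfd (0.897 CPM). Postnatal NSC 3 stood apart for Pdgfa (14.2 CPM) and Pdgfb (0.275 CPM). These are the libraries with the lowest G1/S sums of their groups, at 532 and 690 CPM. OPC 2 also stood above the other OPC libraries in the sum of the OPC markers (12920 against 9334 to 9647 CPM) and of the neuron and neuroblast markers (233 against 82.2 to 128 CPM), and below them in the neural stem (4692 against 6847 to 7573 CPM) and astrocyte markers (869 against 1162 to 1531 CPM). The part of these differences was not tested.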

How the results depend on the processing

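The calls for Pdgfra held in all 23 alternatives, with a log2 fold change of 2.20 to 2.81 for OPC over postnatal NSC, -4.42 to -4.07 for adult over postnatal NSC and 6.46 to 7.00 for OPC over adult NSC. The cause of the changes below was not tested. For OPC over postnatal NSC, Pdgfrb turned to -1.24 to 1.25 with 1 library left out, to -0.62 without OPC 2 and postnatal NSC 3 and to -0.92 with limma, and was never called. Pdgfa was 0.14 to 0.58 with 1 library left out, called without postnatal NSC 3, and 0.53 (called) without both libraries, so that 1 to 2 members were called higher with 1 library left out and 2 without both. For adult over postnatal NSC, Pdgfrb was called at -2.69 with no filter, -2.69 with the 2 groups alone, -2.08 without both, -2.66 with DESeq2 and -2.40 with limma, and ranged from -3.16 to -2.07 with 1 library left out. This made 2 members lower under each of these settings, and 1 to 2 with 1 left out. Pdgfa was called at 0.46 without both and 0.39 with limma, giving 2 members higher, and was 0.017 to 0.47 with 1 left out. Pdgfc was 0.46 to 0.80 with 1 left out, and 0 to 1 members were called higher. For OPC over adult NSC, Pdgfrb was no longer called at 1.46 without both and 1.48 with limma (1 member higher), and was 1.46 to 3.81 with 1 left out (1 to 2 higher). Pdgfa turned to -0.021 with limma. With the replicate number as a block Pdgfrb was 2.55 (adjusted p = 0.0756, edgeR) and 1 member was higher. Same-numbered libraries correlated from -0.376 to 0.394, so the numbers were not taken as pairs. For OPC over postnatal NSC, uncalled Kitl turned to -0.026 with the block and -0.049 with Ddx3y and was -0.17 to 0.34 with 1 library left out, and uncalled Flt3l turned to -0.36 without both, -0.087 with Ddx3y and -0.51 with limma and was -0.21 to 0.29 with 1 left out. With the longest transcript as length, RPKM became 33.6, 4.42 and 1.96 in postnatal NSC and 1.79, 4.97 and 3.03 in adult NSC for Pdgfra, Pdgfa and Pdgfc, and 5.38 and 2.46 in OPC for the latter pair, and Pdgfd 1.24% of adult ligand RPKM. Adult Pdgfa was 3.16 RPKM with library totals. With OPC set at 3 counts, the fold by which Pdgfb was lower in OPC than in postnatal NSC was 1.82 to 3.92 with 1 library left out and 1.28 without both. The Pdgfd ratio of OPC to postnatal NSC was 0.492 to 1.62 with 1 left out and 0.425 without both, and that of OPC to adult NSC 0.423 to 1.39 and 0.423. Low counts limit Pdgfrb, Pdgfb and Pdgfd most.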

Other observations

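The genes within 1000000 bases of Pdgfra were looked at after their values were seen, and their changes were not tested as a group. Of 11 neighbours that passed the filter, 5 were called higher and 0 lower in OPC than in postnatal NSC, 1 higher and 6 lower in adult than in postnatal NSC, and 6 higher and 1 lower in OPC than in adult NSC (22.4%, 22.7%, 25.2%, 27.9%, 26.3% and 24.7% of all genes). Lnx1, an E3 ubiquitin ligase gene 449379 bases before Pdgfra, was at 72.9 ± 13.8 CPM in OPC, 25.4 ± 1.71 CPM in postnatal and 3.57 ± 0.554 CPM in adult neurospheres (SD, n = 4). Its log2 fold change was 1.52 ± 0.135 for OPC over postnatal NSC (adjusted p = 7.3e-06, edgeR) and -2.83 ± 0.151 for adult over postnatal NSC (adjusted p = 1.48e-07, edgeR). Kit, 376700 bases after it, had the same order of groups. Gsx2, a homeobox gene 74398 bases before it, was at 5.14 to 9.13 CPM in OPC, 1.79 to 6.51 CPM in postnatal and 0.6 to 1.92 CPM in adult neurospheres, and adult NSC was lower than postnatal NSC and OPC (adjusted p = 0.00275 and 0.000597, edgeR). Tmem165 went the other way between the NSC groups, higher in adult NSC by 0.62 ± 0.0873 (adjusted p = 0.000167, edgeR). Kdr, 734611 bases after Pdgfra, Rasl11b and Srd5a3 were called in no comparison. Lnx1 overlaps Fip1l1, and their reads may not be separated.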
